A study of Homo sapiens with 12 samples.

Results

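The 35 genes described here encode enzymes that make purine and pyrimidine nucleotides, convert them to deoxynucleotides and supply the folate-bound carbon units that these routes consume. They were taken by gene symbol from a list that was chosen with earlier results of these data known. All 35 were found among the 43236 gene entries of each library. MNNG/HOS is a line of human osteosarcoma cells that was derived from HOS cells by chemical transformation, and NXP800 is an oral small molecule first developed against the HSF1 pathway and described in this study as an activator of the kinase GCN2. The cells were kept in DMSO, the solvent, or in 300 nM NXP800, and RNA was taken after 6 h or 24 h, which gave 4 groups of 3 libraries. All libraries come from this single line in culture, with no genetic change that sets the groups apart. The study's methods describe its results in general as coming from independent experiments. The labels do not say whether the 3 libraries of a group are separate cultures, and the p-values below measure the spread between these libraries, which would be technical if they are not.

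De novo purine synthesis builds the purine ring on activated ribose, in a chain of enzymes that ends at IMP, from which AMP and GMP are made, while salvage enzymes reattach free bases to ribose. De novo pyrimidine synthesis assembles the ring first and then joins it to ribose as UMP, the precursor of CTP. Ribonucleotide reductase turns ribonucleotides into deoxynucleotides, thymidylate synthase methylates dUMP to dTMP with a folate cofactor, and kinases complete the triphosphates used for DNA synthesis. Proliferating tumor cells depend on these routes.

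The deposited values are raw counts of read pairs per gene, with 30810614 to 31394097 counts on genes per library at 6 h and 30947195 to 31947656 at 24 h. Levels are in CPM, which relate a gene to the total of its library after TMM scaling, a correction for differences in RNA composition. Standard errors of log2 fold changes are marked SE. A gene was called higher or lower at a Benjamini-Hochberg adjusted p below 0.05 in edgeR's quasi-likelihood test over the 15979 genes that passed the filter on low counts. All 35 genes passed it. Read pairs that met no annotated gene made up 6.66 to 8.14% of the 6 h libraries but 2.73 to 3.67% of the 24 h libraries, so each NXP800 group was set only against DMSO of the same time. Of the mesenchymal and osteoblast lineage markers, VIM, SPARC, COL1A1, CD44, SPP1 and RUNX2 were present, whereas the defining markers COL1A2, ALPL and BGLAP had at most 0.302 CPM in any group mean. The markers of blood, epithelial, endothelial and liver cells summed to 6.80 to 8.42 CPM in the libraries of DMSO and of NXP800 at 6 h and to 10.6 to 10.8 CPM in NXP800 at 24 h, mostly EPCAM, which rose at 24 h from 5.78 to 10.1 CPM (log2 fold change 0.81, adjusted p = 4.85e-06). The response genes DDIT3, CHAC1, ASNS, TRIB3 and SESN2 were all called higher at both times, with log2 fold changes from 1.92 to 4.40.

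Most of the 35 genes were lower with NXP800. At 6 h, 21 were called lower and 2 higher, against 27.8% and 25% of all tested genes. At 24 h, 25 were called lower and 2 higher, against 28.6% and 27.5% of all tested genes. Over the 35 genes the median log2 fold change came to -0.224 (6 h) and -0.453 (24 h), while that of all tested genes was -0.046 and -0.003. No member reached a 2-fold change at 6 h, and 5 fell by more than 2-fold at 24 h, all of them genes of deoxynucleotide synthesis. Of the 15979 tested genes, 962 were called higher and 835 lower by more than 2-fold at 6 h, and 1075 and 1170 at 24 h. Together the 35 genes took 0.626 to 0.629% of the counts in DMSO and 0.562 to 0.567% in NXP800 at 6 h. At 24 h they took 0.593 to 0.606% against 0.446 to 0.456%, and the groups did not overlap at either time. Of the 35 genes, 20 were called lower at both times, 5 only at 24 h and SAMHD1 only at 6 h. MTHFD1L was called higher at both times, GART only at 6 h and ATIC only at 24 h, and 6 genes (PPAT, ADSL, GMPS, CAD, UCK2 and RRM2B) were called at neither. Such patterns over both times were not counted for all tested genes. These calls leave out the replicate number. With it as a block, PPAT, PFAS and CAD were also called lower and RRM2B higher at 6 h. At 24 h the block also called CAD and SAMHD1 lower and GART higher, and no call was lost at either time. In bulk RNA, fewer cells that express a gene and less of its RNA per cell cannot be told apart.

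**Figure D1:**
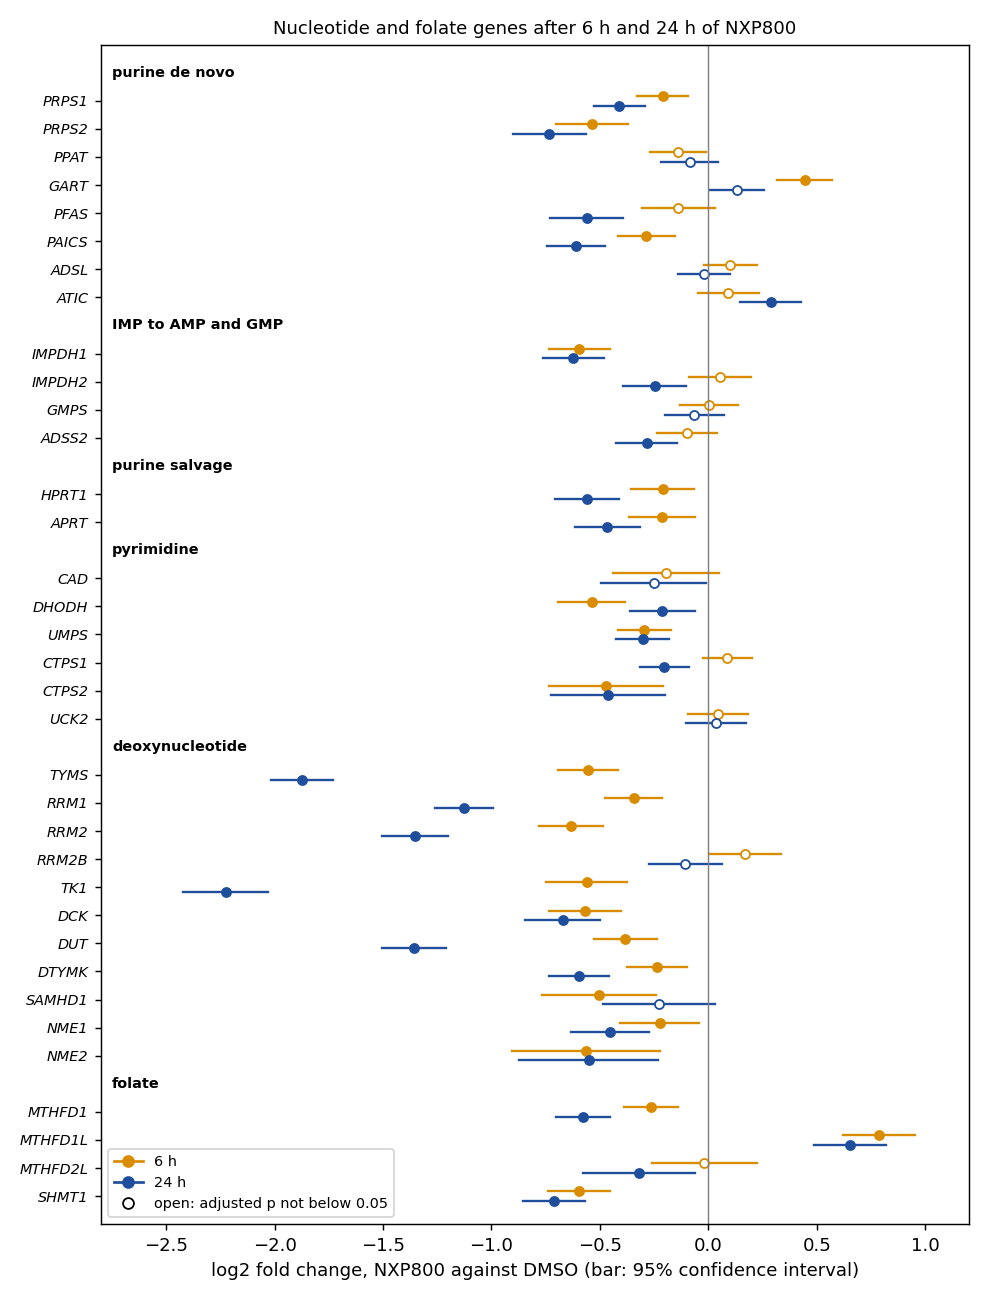
Log2 fold change of each of the 35 genes with NXP800 against DMSO (x axis) at 6 h (orange) and 24 h (blue), grouped by step, with 95% confidence intervals as bars and open circles where the adjusted p was not below 0.05. TYMS, RRM1, RRM2, TK1 and DUT lie left of -1 at 24 h and left of 0 at 6 h, and MTHFD1L lies right of 0 at both times.

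The purine ring pathway did not move as 1 block. Of its 8 genes, GART was called higher and PRPS1, PRPS2 and PAICS lower at 6 h. At 24 h ATIC was called higher and PRPS1, PRPS2, PAICS and PFAS lower. Over all tested genes, 25% were called higher and 27.8% lower at 6 h, and 27.5% and 28.6% at 24 h. PRPS1 and PRPS2 encode the synthetases of PRPP, the activated ribose that opens the pathway. PRPS2 had 61.9, 60.7 and 58.2 CPM in the DMSO libraries and 40.6, 41.4 and 42.6 CPM in the NXP800 libraries at 6 h, and 52.9, 51.3 and 50.0 against 34.8, 31.0 and 27.0 CPM at 24 h. Every NXP800 library was below every DMSO library of its time. PRPS2 fell at 6 h (log2 fold change -0.54, SE 0.078, adjusted p = 2.54e-05) and at 24 h (log2 fold change -0.73, SE 0.079, adjusted p = 9.36e-07). PRPS1 fell less in size, with log2 fold changes of -0.21 and -0.41.

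GART encodes a single protein with 3 enzyme activities of the pathway, among them a formyl transfer from folate. Its level was 361, 355 and 338 CPM in DMSO and 483, 497 and 454 CPM in NXP800 at 6 h, and 351, 335 and 359.9 against 376, 378 and 392 CPM at 24 h. The treated libraries were above the controls at both times, by a wide margin only at 6 h. GART rose at 6 h (log2 fold change 0.45, SE 0.060, adjusted p = 1.16e-05), and its 24 h value did not pass the test (log2 fold change 0.13, SE 0.060, adjusted p = 0.0687). With the replicate number as a block, the 24 h value of 0.13 passed, with an adjusted p = 0.0171, and it also passed without NXP800 24 h replicate 2 (log2 fold change 0.17, adjusted p = 0.0363). It passed as well with library size only (0.22, adjusted p = 0.0022), with at least 10 counts in every library (0.14, adjusted p = 0.0452) and with DESeq2's Wald test (0.14, adjusted p = 0.0425). ATIC carries the last 2 reactions of the ring pathway, and it also takes a formyl group from folate. ATIC had 216, 183 and 201 CPM in DMSO and 253, 229.5 and 250.4 CPM in NXP800 at 24 h, where it rose with no overlap (log2 fold change 0.29, SE 0.066, adjusted p = 0.00145). At 6 h ATIC had 213, 205 and 204 against 227, 217 and 220.2 CPM, without overlap, and did not pass the test (log2 fold change 0.093). Its 6 h value passed with only the 6 libraries of its time (0.13, adjusted p = 0.0347).

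PAICS and PFAS, whose enzymes act in the same chain, moved the other way. PAICS, a bifunctional carboxylase and synthetase, had 703, 663 and 651 CPM in DMSO and 561, 551 and 544 CPM in NXP800 at 6 h. At 24 h its libraries had 671, 635 and 625 CPM against 448, 411 and 407 CPM. The groups were apart at both times, and PAICS fell at 6 h (log2 fold change -0.29, SE 0.062, adjusted p = 0.00113) and further at 24 h (log2 fold change -0.61, SE 0.063, adjusted p = 5.62e-07). PFAS, the amidotransferase of the pathway, had 193, 177 and 210.2 against 178, 165 and 184 CPM at 6 h, where the groups overlapped (log2 fold change -0.14, SE 0.079, adjusted p = 0.159). With the replicate block its 6 h value of -0.14 passed, with an adjusted p = 0.0149. At 24 h PFAS had 234, 256 and 278 CPM in DMSO and 164, 172 and 186 CPM in NXP800 and fell with no overlap (log2 fold change -0.56, SE 0.079, adjusted p = 1.76e-05). PPAT, the amidotransferase that commits PRPP to purines, had log2 fold changes of -0.14 and -0.087 and ADSL, a lyase that also acts on the way from IMP to AMP, had 0.10 and -0.019, none of which passed the test. The 95% intervals of PPAT were -0.27 to -0.013 at 6 h and -0.22 to 0.043 at 24 h. The 6 h value of PPAT passed with the replicate block (-0.14, adjusted p = 0.0257) and with at least 10 counts in every library (-0.14, adjusted p = 0.0499). That of ADSL passed with only the 6 libraries of its time (0.13, adjusted p = 0.041).

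PPAT and PAICS stand head to head on chromosome 4, and the short stretch of DNA between a start of each is shown because PAICS was called lower at both times and PPAT at neither. In the RefSeq promoter table of GRCh38.p14 the PPAT transcript starts at 56435615 on the minus strand and a PAICS transcript at 56435752 on the plus strand, which leaves 136 bases between them at chr4:56435616-56435751, printed here on the plus strand.
PPAT to PAICS: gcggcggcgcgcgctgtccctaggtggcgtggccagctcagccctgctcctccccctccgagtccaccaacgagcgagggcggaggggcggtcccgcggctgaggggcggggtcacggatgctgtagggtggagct
None of the 4 motifs searched in the promoters on both strands, the E-box CACGTG, the E2F core GCGGGAA, the CCAAT box and the ATF4 core TGATGNAA, occurs in it. The wider windows around the annotated starts do hold matches, CACGTG for PPAT and both CACGTG and GCGGGAA for PAICS. The whole PAICS entry begins at 56410507, inside PPAT, so the stretch lies between these transcripts and not between the whole genes. The ratio of PAICS to PPAT counts, which needs no scaling between libraries, was 5.73, 5.49 and 5.59 in the DMSO libraries and 5.13, 5.09 and 5.00 in the NXP800 libraries at 6 h. At 24 h it was 7.32, 7.26 and 6.79 against 5.01, 4.65 and 5.25. The ratio was lower in every treated library at both times, and the 2-sided exact permutation test gave p = 0.1, the smallest value that 3 libraries against 3 allow (adjusted p = 0.109 over 12 ratios).

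Among the 4 genes that lead from IMP to AMP and GMP, IMPDH1 was called lower at 6 h and IMPDH1, IMPDH2 and ADSS2 at 24 h. Of all tested genes, 27.8% and 28.6% were called lower at these times. IMPDH1 and IMPDH2 encode the 2 IMP dehydrogenases, the rate-limiting enzymes of guanine nucleotide synthesis. IMPDH1 had 131, 135 and 143 CPM in DMSO and 88.5, 88.1 and 94.1 CPM in NXP800 at 6 h, and 169.8, 162 and 177 against 111, 101 and 119 CPM at 24 h. It fell by a like amount at both times, with no overlap (6 h: log2 fold change -0.59, SE 0.067, adjusted p = 1.93e-06, 24 h: log2 fold change -0.62, SE 0.067, adjusted p = 8.89e-07). For IMPDH2 the 6 h value of 0.055 did not pass the test, and at 24 h it fell by 0.25 on the log2 scale, with an adjusted p = 0.00553. Summed as 1 feature, the pair stood at -0.12 at 6 h, which did not pass the test (adjusted p = 0.124), and at -0.35 at 24 h, which did (adjusted p = 0.000213). ADSS2, which makes the precursor of AMP, had log2 fold changes of -0.099 and -0.28, the latter called. GMPS, which completes GMP, had 0.0017 and -0.064, and its 95% interval at 24 h was -0.20 to 0.071.

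Both salvage genes were called lower at both times, against 27.8% of all tested genes at 6 h and 28.6% at 24 h. HPRT1 encodes the enzyme that returns hypoxanthine and guanine to nucleotides, and APRT does so for adenine. HPRT1 had 127, 138 and 122 CPM in DMSO and 108, 118 and 109 CPM in NXP800 at 6 h, and 105, 102 and 106 against 77.3, 66.0 and 68.8 CPM at 24 h. The groups did not overlap, and HPRT1 fell at 6 h (log2 fold change -0.21, SE 0.068, adjusted p = 0.016) and at 24 h (log2 fold change -0.56, SE 0.069, adjusted p = 4.13e-06). Its 6 h call was lost without DMSO 6 h replicate 2 (log2 fold change -0.16, adjusted p = 0.0879), without NXP800 6 h replicate 1 (-0.18, adjusted p = 0.0693) and without NXP800 6 h replicate 3 (-0.19, adjusted p = 0.0587). APRT had 141, 145 and 147 CPM against 128, 116 and 129 CPM at 6 h and 196, 197 and 199 against 154, 126 and 148 CPM at 24 h, again without overlap. On the log2 scale it fell by 0.21 (6 h, adjusted p = 0.0183) and by 0.46 (24 h, adjusted p = 3.58e-05). Without DMSO 6 h replicate 3 or NXP800 6 h replicate 2, the adjusted p of APRT at 6 h was 0.0525 or 0.1, with log2 fold changes of -0.20 and -0.16.

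HPRT and B2M were the reference genes to which the study scaled its RT-qPCR. The HPRT primers matched the reference transcript HPRT1-201 of GENCODE at bases 198 to 221 and, on the other strand, 280 to 299, and are printed here 5′ to 3′ because the gene they read fell in these libraries.
HPRT forward primer: tgaccttgatttattttgcatacc
HPRT reverse primer: cgagcaagacgttcagtcct
B2M was called lower as well, with a log2 fold change of -0.30 after 6 h (adjusted p = 0.0108) and -0.64 after 24 h (adjusted p = 2.18e-05). These values are relative to all counts of a library, and no RT-qPCR value was analysed here.

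The pyrimidine genes were lower or not called. Of the 6 genes, DHODH, UMPS and CTPS2 were called lower at both times and CTPS1 at 24 h, and none was called higher. Among all tested genes, 27.8% were called lower and 25% higher at 6 h, and 28.6% and 27.5% at 24 h. The median of the 6 genes was -0.245 and -0.232 as log2 fold change. DHODH encodes the mitochondrial enzyme that oxidizes dihydroorotate. DHODH had 31.6, 34.9 and 30.1 CPM in DMSO and 22.5, 22.9 and 21.0 CPM in NXP800 at 6 h, and 36.8, 35.9 and 37.5 against 30.9, 32.8 and 31.4 CPM at 24 h. It fell at both times without overlap (6 h: log2 fold change -0.54, SE 0.072, adjusted p = 1.19e-05, 24 h: log2 fold change -0.21, SE 0.071, adjusted p = 0.0184). Its 24 h call was lost without DMSO 24 h replicate 3 (log2 fold change -0.20) or NXP800 24 h replicate 1 (-0.19), each with an adjusted p = 0.0547, with scaling by library size only (-0.12, adjusted p = 0.173) and with no filter on low counts (-0.19, adjusted p = 0.0955). UMPS, the bifunctional enzyme that yields UMP, had -0.30 and -0.30, both called (adjusted p = 0.000429 and 0.000321).

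CAD, the trifunctional protein that carries the opening reactions of the pyrimidine pathway, had 139, 117 and 158 CPM in DMSO and 120.5, 114 and 127 CPM in NXP800 at 6 h. At 24 h it had 220.1, 221 and 270.0 against 177, 186 and 235 CPM. The groups overlapped at both times, and neither value passed the test (6 h: log2 fold change -0.19, SE 0.11, adjusted p = 0.168, 24 h: log2 fold change -0.25, SE 0.11, adjusted p = 0.0702). Libraries of the same number were high or low together, and with the replicate block CAD was called lower both at 6 h, where it stood at -0.19 with an adjusted p = 0.00541, and at 24 h, where it stood at -0.26 with an adjusted p = 0.000322. Without DMSO 6 h replicate 2 the 6 h value was -0.30 (adjusted p = 0.0452), and without NXP800 24 h replicate 3 the 24 h value was -0.39 (adjusted p = 0.00747). With no filter on low counts both passed (-0.19, adjusted p = 0.0385, and -0.23, adjusted p = 0.00779). CTPS1 and CTPS2 encode the CTP synthetases. CTPS2 was far less abundant, with 8.11, 8.23 and 7.56 CPM in DMSO and 5.68, 5.63 and 5.93 CPM in NXP800 at 6 h and 7.80, 8.14 and 10.7 against 6.31, 6.05 and 6.96 CPM at 24 h. It fell at both times without overlap (6 h: log2 fold change -0.47, SE 0.12, adjusted p = 0.00452, 24 h: log2 fold change -0.46, SE 0.12, adjusted p = 0.00455). CTPS1 had log2 fold changes of 0.089 at 6 h, which did not pass, and -0.20 at 24 h, which passed (adjusted p = 0.00413) but not with scaling by library size only (-0.11, adjusted p = 0.0992). UCK2, which phosphorylates uridine and cytidine for salvage, had 0.043 and 0.037, with 95% intervals of -0.095 to 0.18 and -0.10 to 0.17.

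The 5 lowest log2 fold changes of the 35 genes at 24 h were those of deoxynucleotide genes. Of the 11 genes of this step, 10 were called lower at 6 h and 9 at 24 h, against 27.8% and 28.6% of all tested genes. None was called higher, against 25% and 27.5% of all tested genes. The median log2 fold change went from -0.505 at 6 h to -0.672 at 24 h. TYMS encodes thymidylate synthase, the only de novo source of dTMP. TYMS had 640.3, 673 and 625 CPM in DMSO and 443, 446 and 430.4 CPM in NXP800 at 6 h, and 676, 632 and 626 against 189, 163 and 176 CPM at 24 h. Every treated library lay below the controls of its time, by the wider margin at 24 h. TYMS fell at 6 h (log2 fold change -0.55, SE 0.066, adjusted p = 3.17e-06) and more at 24 h (log2 fold change -1.87, SE 0.068, adjusted p = 1.17e-11). Of the exon bases of TYMS in GENCODE, 47.9% are shared with genes on the opposite strand, mainly ENOSF1, and the strand setting of the counting is not given in the sources used here. ENOSF1 itself was not called, with log2 fold changes of -0.050 and 0.12, at 99.8 CPM in DMSO at 6 h. TYMSOS, a further gene on the opposite strand, fell with TYMS, by 0.65 and 1.63 on the log2 scale, both called (adjusted p = 0.000687 and 2.1e-07). It had 10.6 and 7.30 CPM in DMSO.

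TK1 encodes the cytosolic thymidine kinase, which salvages thymidine. Its libraries had 204, 207 and 189.7 CPM in DMSO and 142, 139 and 126 CPM in NXP800 at 6 h, and 247, 262 and 254 against 60.1, 44.8 and 58.3 CPM at 24 h. TK1 was the gene of the 35 with the lowest log2 fold change at 24 h, and the groups were apart at both times (6 h: log2 fold change -0.56, SE 0.088, adjusted p = 5.86e-05, 24 h: log2 fold change -2.23, SE 0.093, adjusted p = 4.09e-11). DCK, the kinase of deoxycytidine and other deoxynucleosides, fell by 0.57 and 0.67 on the log2 scale at 6 h and 24 h (adjusted p = 1.66e-05 and 3.31e-06).

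The subunits of ribonucleotide reductase parted. RRM1 encodes the large catalytic subunit, RRM2 the small subunit made in S phase and RRM2B an alternative small subunit that p53 induces. RRM2 had 290.2, 274 and 289 CPM in DMSO and 185, 179 and 186 CPM in NXP800 at 6 h, and 249.8, 229 and 252 against 107, 88.7 and 90.6 CPM at 24 h. It had the lowest log2 fold change of the 35 genes at 6 h (log2 fold change -0.63, SE 0.070, adjusted p = 1.61e-06) and fell further at 24 h (log2 fold change -1.35, SE 0.072, adjusted p = 3.7e-10). RRM1 had 191, 183 and 184 CPM against 145, 146 and 149 CPM at 6 h and 182, 179.9 and 183 against 90.0, 75.7 and 84.3 CPM at 24 h. Both genes were lower in every treated library, and RRM1 fell at 6 h (log2 fold change -0.34, SE 0.062, adjusted p = 0.00021) and at 24 h (log2 fold change -1.12, SE 0.063, adjusted p = 6.25e-10). RRM2B had 33.1, 32.1 and 30.2 CPM in DMSO and 34.3, 38.9 and 34.1 CPM in NXP800 at 6 h, and its log2 fold changes of 0.17 and -0.11 did not pass the test. The 6 h value of RRM2B passed with the replicate block (0.17, adjusted p = 0.023) and with only the 6 libraries of its time (0.20, adjusted p = 0.0245). The RRM2 to RRM2B ratio of counts was 8.76, 8.55 and 9.57 in DMSO and 5.39, 4.60 and 5.45 in NXP800 at 6 h, and 9.25, 9.34 and 9.96 against 4.31, 3.63 and 4.09 at 24 h, with no overlap at either time (2-sided exact permutation p = 0.1 each, adjusted p = 0.109).

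DUT encodes the dUTPase that keeps dUTP low and supplies dUMP, and DTYMK the kinase that carries dTMP to dTDP. DUT had 206, 222 and 199 CPM in DMSO and 162, 161 and 159 CPM in NXP800 at 6 h, and 234, 239.6 and 232 against 101, 83.3 and 91.0 CPM at 24 h. It fell at 6 h (log2 fold change -0.38, SE 0.068, adjusted p = 0.000188) and at 24 h (log2 fold change -1.36, SE 0.070, adjusted p = 2.66e-10). DTYMK had 136, 143 and 138 against 119.8, 119.6 and 114 CPM at 6 h and 176, 183 and 189 against 122, 109 and 131 CPM at 24 h. Neither gene's groups overlapped, and DTYMK fell at 6 h (log2 fold change -0.23, SE 0.065, adjusted p = 0.00645) and at 24 h (log2 fold change -0.60, SE 0.066, adjusted p = 1.16e-06). SAMHD1, a hydrolase that breaks down dNTPs, fell at 6 h (log2 fold change -0.50, adjusted p = 0.00273) and had -0.23 at 24 h, which passed only with the replicate block (-0.23, adjusted p = 0.00114) or without NXP800 24 h replicate 3 (-0.38, adjusted p = 0.00983).

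NME1 and NME2 encode nucleoside diphosphate kinases, which make the triphosphates, and NME1 had log2 fold changes of -0.22 and -0.45 and NME2 of -0.56 and -0.55, all called. The 6 h call of NME1 was lost without DMSO 6 h replicate 2 (-0.13, adjusted p = 0.233), NXP800 6 h replicate 1 (-0.23, adjusted p = 0.077) or NXP800 6 h replicate 2 (-0.17, adjusted p = 0.161), with DESeq2's Wald test (-0.21, adjusted p = 0.0703) or size factors (-0.21, adjusted p = 0.0548), and with only the 6 libraries of its time (-0.19, adjusted p = 0.0666). Both genes lie inside the readthrough entry NME1-NME2 on chromosome 17, which had 0 counts in all 12 libraries, while NME1 had 15611 and NME2 1380 counts in all. Reads on shared exons may have been set aside as ambiguous, so the levels of these neighbours are uncertain. Their 6 h and 24 h values as a summed feature were -0.25 and -0.46.

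The start regions of the deoxynucleotide genes that fell are shown for a single motif, GCGGGAA, the core that E2F factors recognize, since E2F factors are known regulators of genes of DNA synthesis. Windows from 250 bases before to 50 bases after each annotated start were in the RefSeq promoter table (GRCh38.p14) for 32 of the 35 genes, all but ADSL, IMPDH2 and RRM2B. The core occurred on either strand in 5 of 10 deoxynucleotide genes, in 4 of 12 purine genes, in 0 of 6 pyrimidine genes and in 0 of 4 folate genes, against 7.82% of all 27305 genes with a window. The 6 matches of the 5 deoxynucleotide genes follow as 30-base stretches on the strand of each gene, with the core in capitals, as GCGGGAA or, read on the other strand, TTCCCGC.
TYMS (chr18:657603-657632): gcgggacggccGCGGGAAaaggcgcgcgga
RRM1 (chr11:4094451-4094480): caagaaaaacgTTCCCGCcggttaggtttt
TK1 (chr17:78187046-78187075): aagcggtcggcGCGGGAAccaggggcttac
DCK, upstream match (chr4:70993446-70993475): tccggaacctcTTCCCGCgccctgcccggg
DCK, match nearer the start (chr4:70993550-70993579): ggagcgcgcacGCGGGAAcccgcgctggag
DUT (chr15:48332144-48332173): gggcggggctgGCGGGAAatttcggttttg
These 5 genes were called lower at both times. The 4 purine genes with the core are PRPS1, PRPS2 and PAICS, called lower at both times, and GART, called higher at 6 h. RRM2, DTYMK, NME1 and NME2, also called lower at both times, and SAMHD1, called lower only at 6 h, have no such match in their windows. A match is a run of letters, not evidence of binding. CCAAT occurred in 14 of the 32 genes, against 39.7% of all genes, and the E-box CACGTG in 8 of 32, against 8.77%. By step, CCAAT was found in 6 of 10 deoxynucleotide, 2 of 12 purine, 3 of 6 pyrimidine and 3 of 4 folate genes. For CACGTG these counts were 2 of 10, 3 of 12, 1 of 6 and 2 of 4. The 250 bases before the TYMS start (chr18:657403-657652, plus strand) are given whole as the gene of the 35 with the highest level per exon length in DMSO, with the core in capitals.
TYMS upstream region: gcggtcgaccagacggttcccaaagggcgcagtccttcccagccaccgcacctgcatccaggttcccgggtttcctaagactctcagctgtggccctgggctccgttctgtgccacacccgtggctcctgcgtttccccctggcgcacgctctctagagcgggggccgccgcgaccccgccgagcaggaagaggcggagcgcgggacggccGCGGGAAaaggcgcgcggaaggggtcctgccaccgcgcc
E2F1 RNA was called lower, with log2 fold changes of -0.33 and -1.16, E2F2 fell by 0.85 and 2.67 on the log2 scale, and E2F3 had 0.22 and -0.069, the former called higher. Their part in the levels of the deoxynucleotide genes was not tested.

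**Figure D2:**
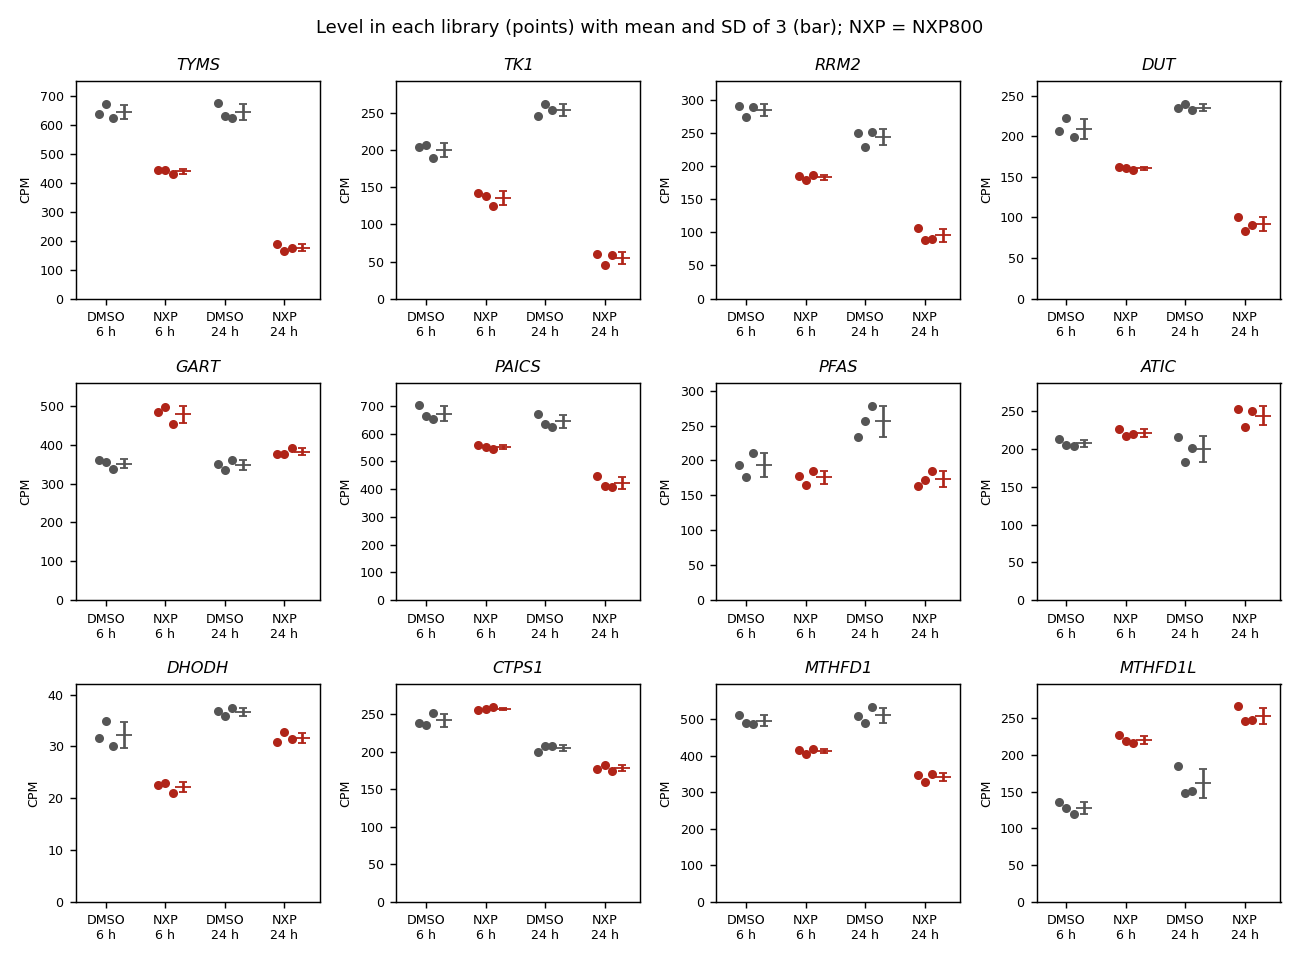
Level of 12 of the genes in each library (y axis, CPM from 0; grey DMSO, red NXP800) with mean and SD of 3 libraries as a bar. TYMS drops from 626 to 676 CPM in DMSO to 163 to 189 CPM in NXP800 at 24 h, whereas GART, ATIC and MTHFD1L are higher in the treated libraries.

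Of the 4 folate genes, MTHFD1L was called higher and MTHFD1 and SHMT1 lower at both times, and MTHFD2L was called lower at 24 h. The shares over all tested genes were 25% higher and 27.8% lower at 6 h, and 27.5% and 28.6% at 24 h. MTHFD1 encodes the cytosolic trifunctional enzyme that interconverts carbon units on folate, MTHFD1L the mitochondrial synthetase that releases formate, MTHFD2L a mitochondrial dehydrogenase and SHMT1 the cytosolic serine hydroxymethyltransferase. MTHFD1L had 136, 128 and 119 CPM in DMSO and 227, 219 and 216 CPM in NXP800 at 6 h, and 184, 148 and 151 against 266, 246 and 248 CPM at 24 h. It rose at both times with no overlap (6 h: log2 fold change 0.79, SE 0.079, adjusted p = 5.31e-07, 24 h: log2 fold change 0.65, SE 0.078, adjusted p = 3.09e-06), the largest rise among the 35 genes. SHMT1 had 66.8, 75.4 and 67.4 CPM in DMSO and 45.7, 46.6 and 46.3 CPM in NXP800 at 6 h, and 90.0, 97.8 and 92.4 against 56.3, 53.4 and 61.2 CPM at 24 h. It fell at both times with no overlap (6 h: log2 fold change -0.60, SE 0.068, adjusted p = 2.22e-06, 24 h: log2 fold change -0.71, SE 0.068, adjusted p = 2.22e-07). MTHFD1 fell by 0.26 and 0.58 on the log2 scale (adjusted p = 0.00125 and 4.56e-07). The ratio of MTHFD1L to MTHFD1 counts was 0.265, 0.262 and 0.245 in DMSO and 0.545, 0.539 and 0.516 in NXP800 at 6 h, and 0.361, 0.303 and 0.284 against 0.768, 0.747 and 0.709 at 24 h. The treated ratios were the higher ones at both times (2-sided exact permutation p = 0.1 each, adjusted p = 0.109).

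MTHFD2L, at 10.5 CPM in DMSO at 6 h, had -0.018 (6 h, not called) and -0.32 (24 h, adjusted p = 0.0352) as log2 fold change, although its groups overlapped. That call was lost without DMSO 24 h replicate 1 (-0.22, adjusted p = 0.171), DMSO 24 h replicate 2 (-0.32, adjusted p = 0.0711), NXP800 24 h replicate 2 (-0.24, adjusted p = 0.16) or NXP800 24 h replicate 3 (-0.27, adjusted p = 0.104). It was also lost with DESeq2's Wald test (-0.31, adjusted p = 0.056), library size only (-0.23, adjusted p = 0.117), no filter on low counts (-0.30, adjusted p = 0.0717) and only the 6 libraries of its time (-0.30, adjusted p = 0.109).

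MTHFD1L was also the single gene of the 32 with a window that held TGATGNAA, the core of the elements that ATF4 binds with partners, which occurs in 4.46% of all genes. The stretch, on the plus strand at chr6:150866346-150866375 of GRCh38.p14, is shown because MTHFD1L was called higher at both times, with the core in capitals.
MTHFD1L: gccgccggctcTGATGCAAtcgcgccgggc
ATF4 RNA rose by 0.66 and 0.51 on the log2 scale (adjusted p = 1.63e-06 and 1.91e-05). MYC, a known activator of nucleotide synthesis genes through CACGTG, rose by 2.36 and 1.44. CACGTG was found for PPAT, PAICS, ATIC, DHODH, DCK, NME1, MTHFD1 and MTHFD1L, of which MTHFD1L was called higher at both times and ATIC at 24 h, PAICS, DHODH, DCK, NME1 and MTHFD1 were called lower at both times, and PPAT was called at neither. The part of MYC or ATF4 in these levels was not tested.

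The responses of 14 genes differed between the times, judged by the test of the difference itself. In 13 of them the 24 h response was the lower, against 13.8% of all tested genes, and in DHODH it was the higher, against 12% of all tested genes. TK1 (log2 fold change -1.66, SE 0.13, adjusted p = 3.52e-07), TYMS (log2 fold change -1.32, SE 0.093, adjusted p = 2.4e-07) and DUT (log2 fold change -0.98, SE 0.097, adjusted p = 4.03e-06) had the largest differences of 24 h minus 6 h. RRM1 (log2 fold change -0.78, SE 0.088, adjusted p = 1.17e-05) and RRM2 (log2 fold change -0.72, SE 0.10, adjusted p = 8.29e-05) came next. All of these are deoxynucleotide genes, whose 24 h fall exceeded the 6 h fall.

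Smaller differences in the same direction were measured for PFAS (-0.42), DTYMK (-0.36), HPRT1 (-0.35), PAICS (-0.32), MTHFD1 (-0.32), IMPDH2 (-0.30) and CTPS1 (-0.29), with adjusted p between 0.00925 and 0.0299. GART (-0.31, adjusted p = 0.0125) belongs to them as a rise at 6 h that was smaller at 24 h. DHODH differed by 0.33 (adjusted p = 0.0264), since its 6 h fall was the larger. The DHODH difference was not called without DMSO 6 h replicate 2 (0.26, adjusted p = 0.0792), NXP800 6 h replicate 3 (0.29, adjusted p = 0.0698) or DMSO 24 h replicate 2 (0.31, adjusted p = 0.0591). That of IMPDH2 was not called without DMSO 6 h replicate 1 or 3, NXP800 6 h replicate 1 or 2, DMSO 24 h replicate 3 or NXP800 24 h replicate 2, with values from -0.29 to -0.26 and adjusted p from 0.0503 to 0.0812. With scaling by library size only, the differences of IMPDH2 (-0.23, adjusted p = 0.0604) and CTPS1 (-0.22, adjusted p = 0.0546) missed the threshold. With no filter on low counts, those of IMPDH2 (-0.29, adjusted p = 0.0515), CTPS1 (-0.28, adjusted p = 0.0645) and DHODH (0.34, adjusted p = 0.0554) did, and that of the summed IMPDH pair was -0.23 (adjusted p = 0.0753). Each response uses the DMSO libraries of its own time, but time of treatment and library set cannot be told apart.

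**Figure D3:**
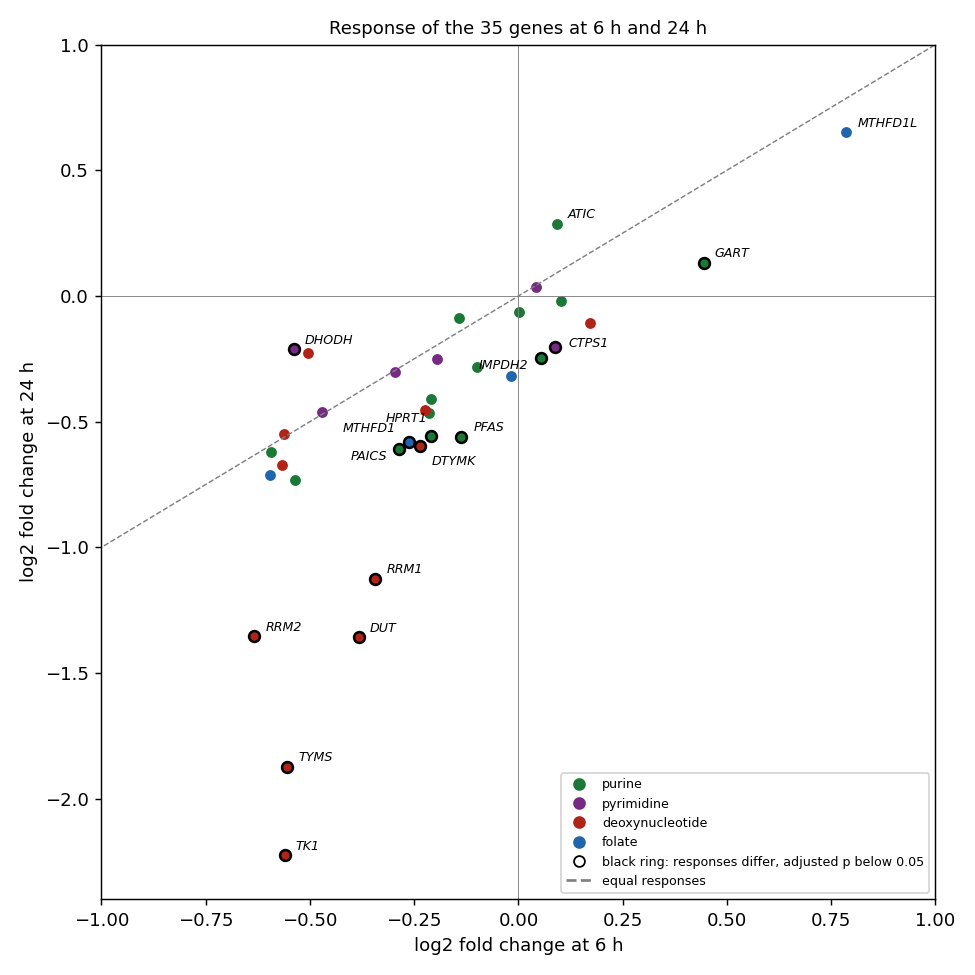
Log2 fold change at 6 h (x axis) against 24 h (y axis) for the 35 genes, colored by step, with a dashed line of equal responses and black rings where the test of the difference passed. TK1, TYMS, DUT, RRM2 and RRM1 lie furthest below the line, DHODH above it, and GART and MTHFD1L to the right.

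The steps were set side by side by the sum of their CPM, as percent of the mean of the DMSO libraries of that time. Such a sum follows its most abundant genes. In DMSO at 6 h, TYMS held 646 of 1824 CPM of the deoxynucleotide sum and MTHFD1 496 of 704 CPM of the folate sum. The folate sum also joins genes that moved apart, the rise of MTHFD1L and the falls of MTHFD1 and SHMT1. In the NXP800 libraries the deoxynucleotide sum reached 70.9 to 72.6% at 6 h and 36.0 to 41.9% at 24 h. The purine sum was 94.5 to 97.0% and 79.6 to 85.0%, the pyrimidine sum 95.4 to 95.8% and 85.6 to 91.1%, and the folate sum 96.8 to 99.3% and 82.2 to 87.4%. Within the purine genes, salvage was at 85.7 to 87.0% and 63.8 to 76.8%, ring synthesis at 96.4 to 99.1% and 82.9 to 86.8%, and the branch from IMP at 92.1 to 95.4% and 77.5 to 86.2%. DMSO libraries lay between 96.2 and 105% for every one of these sums. The folate sum and that of purine ring synthesis overlapped with DMSO at 6 h and were apart from it at 24 h. The median log2 fold change was -0.139 and -0.347 for the 14 purine genes and -0.140 and -0.449 for the 4 folate genes at 6 h and 24 h. It was -0.505 and -0.672 for the 11 deoxynucleotide genes and -0.245 and -0.232 for the 6 pyrimidine genes. The steps were not tested against each other.

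Markers of the cell cycle moved with the deoxynucleotide genes. Of 12 S phase genes, 8 were called lower at 6 h and 11 at 24 h and none higher, with medians of -0.418 and -0.811, and their summed level was 76.3 to 80.1% of DMSO at 6 h and 57.2 to 61.8% at 24 h. PCNA, the sliding clamp of DNA replication, fell by 0.91 and 1.25 on the log2 scale. MCM6, MCM7, CDC45 and POLA1 were not called at 6 h, where CDC45 had 0.0081 and MCM7 -0.048. CDC6 was not called at 24 h (-0.012). Of 8 genes of G2 and mitosis, 4 were called lower at 6 h and all 8 at 24 h, and their sum was 80.7 to 90.5% and 35.03 to 39.8%. Of all tested genes, 27.8% were called lower at 6 h, and 28.6% were called lower and 27.5% higher at 24 h. CDKN1A, the inhibitor p21, rose by 2.17 and 1.72. The 7 tested markers of the mesenchymal and osteoblast lineage moved at 24 h too, where 6 were called lower, among them SPARC (-2.02) and CD44 (-0.76), and RUNX2 higher (0.36). Their sum was 4935 to 5069 CPM in NXP800 against 5686 to 5893 CPM in DMSO at 6 h, and 4092 to 5025 against 6438 to 7396 CPM at 24 h. The part of a shift in cell cycle phase or of these markers' change in the fall of the deoxynucleotide genes was not tested.

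**Figure D4:**
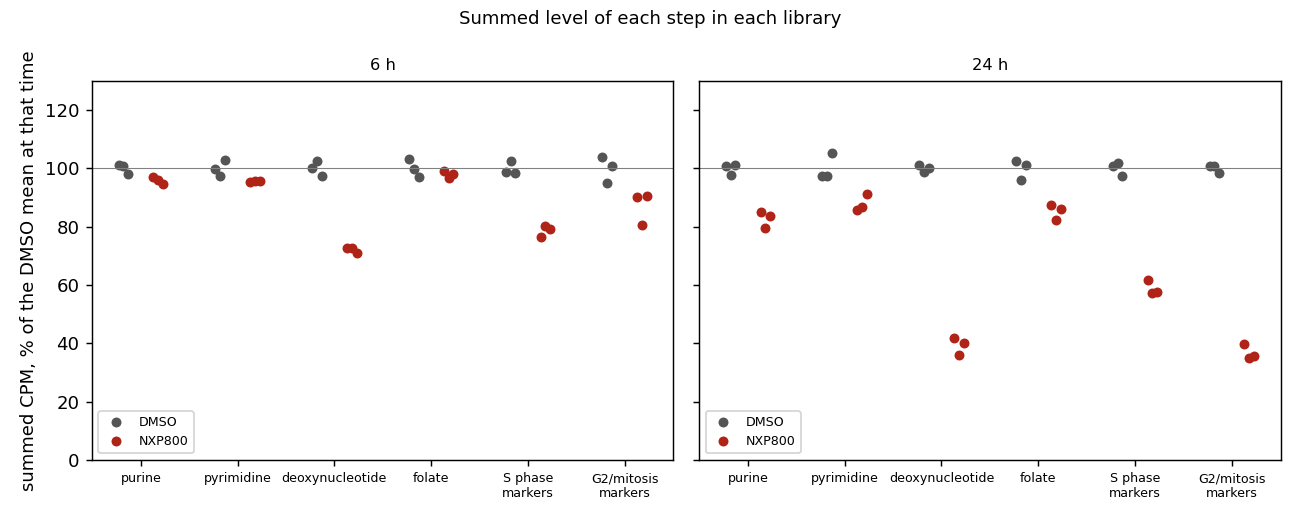
Summed CPM of each step and of the cell cycle markers in each library, as percent of the DMSO mean of the same time (y axis, from 0), at 6 h (left) and 24 h (right). The red deoxynucleotide points sit at 70.9 to 72.6% at 6 h and 36.0 to 41.9% at 24 h, below those of the purine, pyrimidine and folate steps.

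Ratios of counts within a library compare a pair of related genes with no scaling between libraries. The PRPS1 to PRPS2 ratio went from a geometric mean of 3.20 to 4.01 at 6 h and from 3.29 to 4.13 at 24 h. That of IMPDH2 to IMPDH1 went from 2.13 to 3.34 and from 2.21 to 2.87. CTPS1 to CTPS2 went from 30.3 to 44.7 at 6 h without overlap and from 23.3 to 27.7 at 24 h with overlap (2-sided exact permutation p = 0.3). In each of these pairs the less abundant gene by counts had the lower log2 fold change, and in RRM2 and RRM2B the more abundant. Every ratio without overlap had an exact permutation p = 0.1 and an adjusted p = 0.109, so none can pass a threshold of 0.05 with these group sizes.

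**Figure D5:**
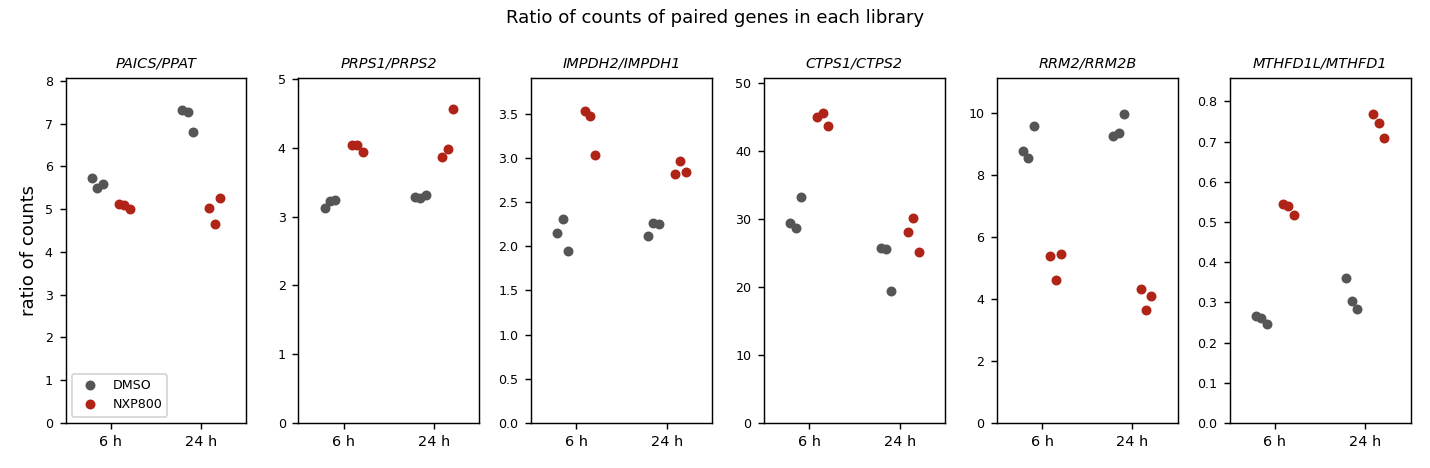
Ratio of the counts of 2 genes in each library (y axis, from 0) at 6 h and 24 h, with DMSO in grey and NXP800 in red, for PAICS/PPAT and 5 pairs of related genes. The MTHFD1L to MTHFD1 ratio goes from 0.245 to 0.265 in DMSO to 0.516 to 0.545 in NXP800 at 6 h, and the RRM2 to RRM2B ratio from 8.55 to 9.57 down to 4.60 to 5.45.

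A further 66 genes of the same pathways, 57 of them with enough counts to be tested, had no common direction at 6 h. At 6 h, 13 were called higher and 18 lower (median log2 fold change 0.034), and at 24 h, 12 and 20 (median -0.108). Over all tested genes the shares were 25% higher and 27.8% lower at 6 h and 27.5% and 28.6% at 24 h. The largest rises at 6 h were those of ALDH1L2, a mitochondrial formyltetrahydrofolate dehydrogenase (1.69), UPP1, the uridine phosphorylase (1.51), and MTHFD2, the mitochondrial folate dehydrogenase (1.35). The largest falls at 6 h were those of CMPK2, a mitochondrial nucleotide kinase (-1.36, at 0.479 CPM in DMSO), and of the folate carriers SLC19A1 (-1.23) and SLC46A1 (-0.96). At 24 h the largest rises were ALDH1L2 (2.37), TYMP, the thymidine phosphorylase (1.77, at 0.880 CPM in DMSO), and UPP1 (1.69), and CMPK2 (-2.90) and NME4, a mitochondrial diphosphate kinase (-1.24), were among the largest falls. SHMT2, the mitochondrial partner of SHMT1, was called higher at both times (0.78 and 0.55), while SHMT1 was called lower.

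Levels of different genes can be compared only per length, here as CPM per kilobase of merged exons in GENCODE (RPKM). In DMSO at 6 h, TYMS had 267 RPKM and TK1 109, PAICS had 89.5, APRT 80.4 and HPRT1 80.2, and MTHFD2L, the lowest of the 35, had 1.07. TYMS remained the highest of the 35 in DMSO at 24 h (266 RPKM), and in NXP800 it stood at 72.8 RPKM, below APRT at 79.6. Merged exons count every annotated isoform, which lowers RPKM for genes with many of them, and 32.8% of the exon bases of IMPDH2 are shared with another entry on its strand.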

How the data were processed

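RNA was measured in MNNG/HOS cells in 12 libraries, 3 in each of 4 groups, made with a strand-specific mRNA kit. The deposited counts are whole read pairs per RefSeq gene (GRCh38.p14), which the authors made with fastp 0.20.1, STAR 2.7.5a and HTSeq 0.12.4, per the submitters' processing notes, with no normalization. The strand setting and the rule for overlapping genes are not given in the sources used here. Rows of the counter for unassigned pairs were excluded throughout.

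Testing used edgeR 4.0.16 under R 4.3.3 (TMM, filterByExpr, quasi-likelihood test) in 1 model of the 4 groups, with Benjamini-Hochberg adjustment over 15979 genes. The depth of 30810614 to 31947656 counts per library leaves the spread between replicates as the main error for all but low genes. Levels were CPM on TMM-scaled totals, and exon lengths and overlaps came from GENCODE. The procedures were tested on simulated data. No 2 libraries of a group agreed within sampling noise, the chi-square per degree of freedom being 7.95 to 28.6.

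Replicate numbers come from the labels. Deviations from the group means correlated across genes with r from 0.159 to 0.329 between a DMSO and an NXP800 library that share a number. Otherwise r was -0.268 to 0.0580. Deviations cancel out within a group, so positive values for shared numbers push the others down. Libraries that share a number thus varied together, and what the number stands for is not given in the labels. Genes are not independent replicates in this check. Alternatives were DESeq2 1.42.0 (size factors and Wald test), library size only, no filter, a minimum of 10 counts throughout, fits of 6 libraries per time, a replicate block, each library left out, an adjusted p below 0.01, and paralogs summed.

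The 35 genes and the lists of other genes and markers were chosen with earlier results of these data known. All 35 genes are named. Values per library were given, in each step, for the largest rise and fall among called genes at each time and for the 10 largest called differences of responses. Of the other pathway genes, the 3 largest rises and falls among called genes were named at each time, except for an item that is not reported here. CAD, RRM2B, ENOSF1, TYMSOS, B2M, SHMT2 and the values of paralog pairs were added after their values were seen. Protein sequences were not used here.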

Additional observations from a re-analysis of the deposited data

Results flagged for a closer look

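For 14 of the 35 genes the response to NXP800 differed between 24 h and 6 h by the test of the difference itself (edgeR's quasi-likelihood test, adjusted p below 0.05 over 15979 genes). The differences, as log2 fold change at 24 h minus that at 6 h, were -1.66 for TK1, -1.32 for TYMS, -0.98 for DUT, -0.78 for RRM1, -0.72 for RRM2 and -0.36 for DTYMK among the deoxynucleotide genes. They were -0.42 for PFAS, -0.35 for HPRT1, -0.32 for PAICS, -0.31 for GART and -0.30 for IMPDH2 among the purine genes, -0.32 for MTHFD1, -0.29 for CTPS1 and 0.33 for DHODH. GART is the single gene among them with a called rise at either time, and DHODH the single gene whose fall was the larger at 6 h. The groups hold 3 libraries each and were not searched for single libraries that stand apart.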

How the results depend on the processing

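No member called higher or lower changed direction when refitted as the same gene. Among all alternatives the values of single genes changed sign only where they were close to 0, or where a gene was summed with its more abundant paralog. With scaling by library size only, the 24 h log2 fold changes of PPAT, ADSL and GMPS were 0.0042, 0.070 and 0.025. With only the 6 libraries of a time point, MTHFD2L at 6 h was 0.014 and ADSL at 24 h 8e-04. Leaving out 1 library gave GMPS -0.021 to 0.027 and MTHFD2L -0.044 to 0.035 at 6 h, and UCK2 -0.0096 to 0.085, ADSL -0.042 to 0.022 and GMPS -0.104 to 0.016 at 24 h. At 6 h the summed pair was at -0.12 for IMPDH2, at 0.074 for CTPS2, which was called lower by itself, and at -0.53 for RRM2B.

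The number of purine genes called higher at 24 h was 2 with library size only, at least 10 counts in every library, the replicate block or DESeq2's Wald test, and 1 to 2 with 1 library left out. That of pyrimidine genes called lower at 24 h was 2 with library size only. With only the 6 libraries of a time point, 5 genes were called higher at 6 h, 3 of them purine and 1 deoxynucleotide, and the replicate block also called 1 deoxynucleotide gene higher at 6 h. The number of genes whose response was higher at 24 h was 2 with library size only, 3 with the replicate block, 0 with no filter and 0 to 1 with 1 library left out. At an adjusted p below 0.01, 7 responses differed, 7 lower and 0 higher. The block gave 27 calls at 6 h, 30 at 24 h and 20 differences, against 23, 27 and 14 without it, and changed no other call than those given beside the genes and the 6 further differences. The cause of these changes was not tested. Library size only moved the median of all genes at 24 h to 0.086 and the share of higher calls among all calls from 49 to 58.7% at 24 h and from 46.6 to 59.6% for the difference. Depth limits CTPS2, NME2 and MTHFD2L most, the genes with the fewest counts.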
